A study of Mus musculus with 24 samples.

Results

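RNA from CD45+ cells of mouse hindlimb muscle was compared between muscle taken 1 day after injury and uninjured muscle, to ask how the blood-derived cells of the tissue differ early after damage. The injured group was CD45+ cells from hindlimb skeletal muscle of C57BL/6 mice aged 8 weeks, 1 day after cardiotoxin. The uninjured group was CD45+ cells from the same tissue, strain and age without injury, and the labels mention no mock injection for it. Each group had 3 libraries, taken by their labels from the 24 libraries of the study, whose other 18 came from CD31+ endothelial cells, mesenchymal stromal cells (MSC) and satellite cells (MuSC) in the same conditions. Of 52997 gene symbols in the table, 16263 were tested, and all of these belong to the comparison. A library held 1000 double-sorted cells, gated on CD45 alone. Biological replicates are what the labels name the libraries of a group, but how many mice gave one is not said. The p-values therefore measure the spread from library to library, taken over all 24 libraries.

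CD45, the product of Ptprc, is a phosphatase on the surface of nearly all nucleated blood cells, so that the sort collects macrophages, monocytes, granulocytes, dendritic cells, lymphocytes and mast cells together. Cardiotoxin is a snake venom toxin that lyses muscle fibers. Damaged muscle draws neutrophils and then monocytes from the blood, which become macrophages that clear debris and later take part in rebuilding the tissue. Uninjured muscle holds resident macrophages, which carry scavenger receptors, complement C1q and class II antigen presentation molecules, beside smaller numbers of dendritic cells and lymphocytes. The values given below are counts scaled to a fixed library total (CPM) in replicates 1, 2 and 3 of each group. A gene is said to have risen or fallen where edgeR's quasi-likelihood test, fitted to all 24 libraries, gave a Benjamini-Hochberg adjusted p below 0.05. Each gene's spread is estimated over all 8 groups, so a gene that did not pass can have varied little between CD45+ libraries. Fold changes are log2 of injured over uninjured with their standard error (SE).

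The CD45+ libraries held 3383909 to 5081944 counts, and a gene without counts in 1 of them could still be at 0.701 to 0.868 CPM (3 counts). Mitochondrial transcripts took 0.830% to 1.08% of the counts in injured and 1.46% to 1.61% in uninjured libraries, and the part of this difference in the results was not tested. Across genes, log2 CPM correlated at a Pearson's r of 0.973 to 0.978 between injured libraries, 0.958 to 0.971 between uninjured libraries and 0.893 to 0.909 between the groups. Over all genes, 2594 (16%) rose and 3012 (18.5%) fell. Of the rises 1092 exceeded 2-fold and of the falls 2251 did. The log2 fold changes had a median of -0.12 over all genes. For 6990 genes (43%) no injured library lay among the uninjured ones. With DESeq2 2605 genes rose and 3130 fell, and in a fit to the 6 CD45+ libraries alone 2253 rose and 2363 fell of 11818 tested.

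**Figure D1:**
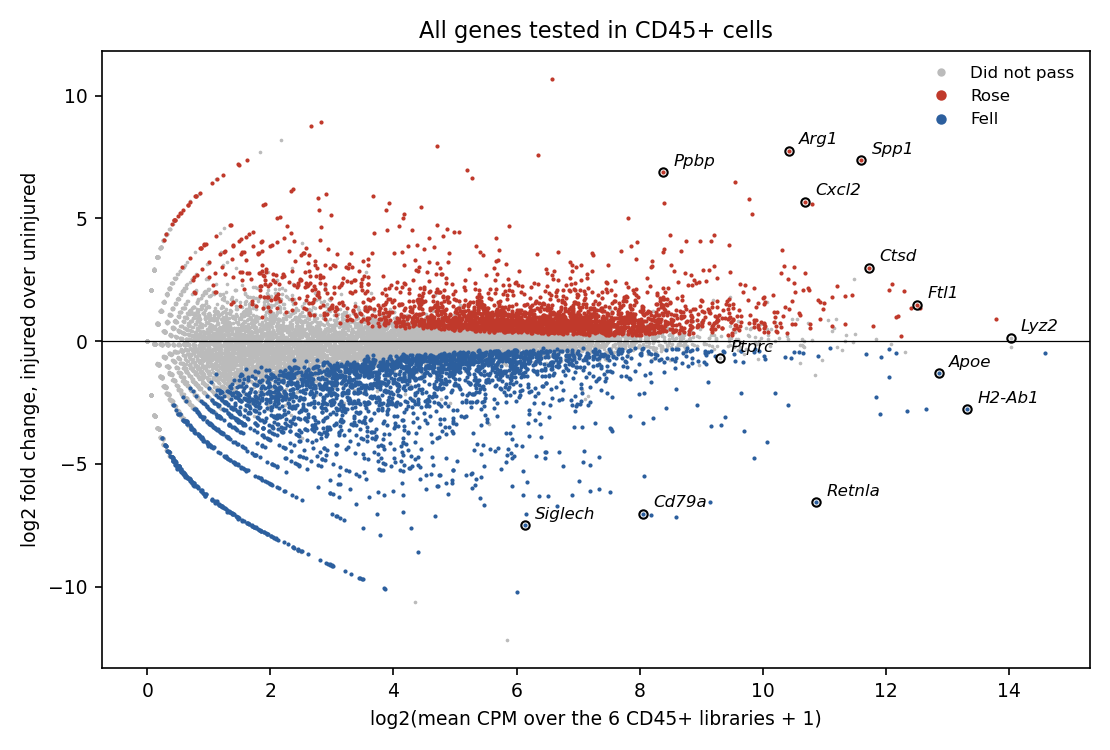
Log2 fold change (injured over uninjured) against log2 of the mean CPM + 1 over the 6 CD45+ libraries, for all 16263 genes tested; red points rose, blue points fell and grey points did not pass, and circled genes are named. More of the falls than of the rises lie far from 0, with 2251 of 3012 falls and 1092 of 2594 rises over 2-fold.

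The sort marker and the genes common to leukocytes were present in every library, and their order between the groups was mixed. Ptprc (chromosome 1, 138062861 to 138175708, GRCm38) was at 429, 471 and 548 CPM in injured and 702, 777 and 872 CPM in uninjured cells. The groups did not overlap, with the injured libraries lower, but the change did not pass in the fit to all 24 libraries (-0.70 ± 0.33, adjusted p = 0.115). It passed in the fit to the 6 CD45+ libraries alone (adjusted p = 0.00166; 0.00166 to 0.472 over all alternatives). Lyz2, the lysozyme gene of myeloid cells and also a gene with a near-identical neighbour, Lyz1, was at 17087, 17169 and 18415 CPM in injured and 18070, 15387 and 14104 CPM in uninjured cells, and the groups overlapped (0.15 ± 0.92, adjusted p = 0.939). In the edgeR fit to the 6 libraries alone the SE of Lyz2 was 0.11, and it did not pass there either (adjusted p = 0.402). Of 12 leukocyte genes 1 rose, the signalling adaptor gene Vav1 (581, 495 and 489.8 CPM in injured and 224, 253 and 266 CPM in uninjured cells, 1.07 ± 0.29, adjusted p = 0.0104, but 0.269 with DESeq2). Of 14 genes of myeloid cells 3 rose (21.4%, against 8.33% of the leukocyte genes and 16% of all genes) and none fell, with a median of 0.40. They were the integrin gene Itgam, which encodes CD11b (787, 814 and 742 CPM in injured and 292, 230.2 and 229.8 CPM in uninjured cells; log2 fold change 1.64 ± 0.24, adjusted p = 2.85e-05), the lysosomal glycoprotein gene Cd68 and the adaptor gene Lst1. Fitted to the 6 libraries alone, 7 leukocyte and 7 myeloid genes rose and 2 of each fell, among them Itgb2 and Fcer1g upward (adjusted p = 0.000228 and 0.000342; 0.000228 to 0.416 and 0.000342 to 0.327 over the alternatives) and Cybb downward (adjusted p = 0.000373; 0.000373 to 0.591).

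Transcripts of lymphocytes were low in the injured libraries. Of 14 B cell genes tested, 14 fell, against 18.5% of all genes, with a median log2 fold change of -5.94 against -0.12 over all genes, and for none of the 14 did the groups overlap (43% of all genes did not). Summed over the list, B cell genes were at 27.5, 31.9 and 92.5 CPM in injured and 1111, 2316 and 4575 CPM in uninjured libraries, so that the highest injured library held less than the lowest uninjured one. Most of these genes passed the filter on low counts through the uninjured libraries, which favours falls, and the counts of lymphocyte genes are given as a description. Every CD45+ library was made from the same number of sorted cells and scaled to its TMM-adjusted total, so that fewer cells of a type among those sorted and less RNA per cell cannot be told apart.

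Cd79a (chromosome 7, 24897381 to 24902197), which encodes a signalling chain of the B cell receptor, was at 1.01, 1.47 and 9.34 CPM in injured and 199, 466 and 915 CPM in uninjured cells. Injured replicate 3 stood above the other injured libraries for this gene and for 10 of the 14 B cell genes (log2 fold change -7.02 ± 0.72, adjusted p = 9.6e-07). Pax5, the transcription factor gene that commits cells to the B lineage, was at 1.52, 0.245 and 0.701 CPM in injured and 39.2, 66.2 and 151 CPM in uninjured cells (log2 fold change -6.67 ± 0.66, adjusted p = 9.75e-08). Its partner Ebf1 was at 0, 0 and 4.44 CPM in injured and 18.7, 85.3 and 129 CPM in uninjured cells, with counts after injury in replicate 3 alone (log2 fold change -5.63 ± 0.91, adjusted p = 0.000132). The complement receptor gene Cr2 had 1 count in injured and 156 counts in uninjured libraries (ratio 0.00581, 95% counting interval 0.000146 to 0.0328). Within the uninjured group, the 14 B cell genes shared 1 order, lowest in replicate 1 and highest in replicate 3.

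Of 15 T cell genes tested, 14 fell, with a median of -3.93, which is the same with the members at 0 counts placed at the limit of 3 counts. Lck, the kinase gene of T cell receptor signalling, was at 3.54, 1.23 and 2.57 CPM in injured and 34.2, 95.4 and 122 CPM in uninjured cells (log2 fold change -5.09 ± 0.65, adjusted p = 2.94e-06). The T cell receptor chain gene Cd3e was at 0.505, 0 and 1.87 CPM in injured and 12.1, 28.1 and 38.6 CPM in uninjured cells, and the groups did not overlap for either gene. Cd8a, a co-receptor gene, had no count in injured libraries and 148 counts in uninjured libraries (at least 54.4-fold lower, taking 3 counts over the group as the limit), and the transcription factor gene Bcl11b had none against 110 counts (at least 40.5-fold lower). With DESeq2 the fall of Cd8a did not pass (adjusted p = 0.288). The receptor gene Il7r, whose product binds the survival factor IL-7 on many lymphocytes, was the 1 member that did not pass, at 34.6, 28.9 and 31.5 CPM in injured and 25.9, 18.5 and 26.3 CPM in uninjured cells (0.43 ± 0.48, adjusted p = 0.534).

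Of 11 natural killer (NK) cell genes tested of 13 listed, 11 fell, with a median of -4.57. Gzma, a granzyme gene, was at 2.27, 0.980 and 1.87 CPM in injured and 60.99, 148 and 192 CPM in uninjured cells (log2 fold change -6.27 ± 0.50, adjusted p = 1.44e-07). Prf1, which encodes the pore-forming perforin, was at 2.53, 0 and 0 CPM in injured and 23.5, 55.8 and 70.7 CPM in uninjured cells (log2 fold change -5.89 ± 1.04, adjusted p = 0.000293). Gzmb had no count in injured libraries against 146 in uninjured libraries (at least 53.7-fold lower). The groups overlapped for none of the 11 genes, where 43% of all genes did not overlap. Klrk1, which encodes the activating receptor NKG2D, was at 9.35, 23.5 and 10.7 CPM in injured and 66.2, 86.2 and 68.1 CPM in uninjured cells (log2 fold change -2.34 ± 0.53, adjusted p = 0.00163). With DESeq2 the falls of Prf1 and Klrk1 did not pass (adjusted p = 0.0597 and 0.145).

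Genes of regulatory T cells and type 2 innate lymphoid cells (ILC2) fell in 6 of 8 cases and rose in 1. Gata3, the transcription factor gene of both ILC2 and type 2 helper T cells, was at 1.01, 4.17 and 0.934 CPM in injured and 25.9, 15.6 and 15.5 CPM in uninjured cells (log2 fold change -3.21 ± 0.55, adjusted p = 0.000142). Il2ra had no count in injured and 62 counts in uninjured libraries (at least 22.8-fold lower). Areg, which encodes the growth factor amphiregulin, moved the other way, with 140 counts in injured and 2 counts in uninjured libraries (ratio 63.4, 95% counting interval 17.2 to 529; adjusted p = 0.0021, but 0.115 with DESeq2). Amphiregulin is made by regulatory T cells of injured muscle and also by myeloid cells, and the listed regulatory T cell gene Foxp3 had 2 counts in injured and 13 counts in uninjured libraries. The ILC2 cytokine genes Il5 and Il13 had none in any of the 6 libraries.

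In the list of plasma cell genes 4 of 7 tested fell and 1 rose. The falls were those of Irf4, Tnfrsf17, Pou2af1 and Mzb1. Prdm1 and Derl3 did not pass (0.41 and 0.59 log2, adjusted p = 0.411 and 0.735). Jchain was not tested, with 6 counts in injured and 7 counts in uninjured libraries. Irf4, a transcription factor gene of plasma cells that macrophages and dendritic cells also use, was at 8.09, 8.33 and 6.77 CPM in injured and 122, 97.2 and 91.3 CPM in uninjured cells (log2 fold change -3.74 ± 0.48, adjusted p = 3.86e-06). Tnfrsf17, the receptor gene of plasma cell survival, had 1 count in injured and 171 counts in uninjured libraries (ratio 0.0053, 95% counting interval 0.000133 to 0.0299). Sdc1, which encodes the proteoglycan CD138 of plasma cells and also of other cells, rose (64.2, 28.2 and 48.6 CPM in injured and 31.3, 12.4 and 22.6 CPM in uninjured cells; 1.07 ± 0.35, adjusted p = 0.0238). Its groups overlapped, and the call ended without injured replicate 1 (adjusted p = 0.108) or uninjured replicate 2 (0.119) or 3 (0.0505), with no filter on low counts (0.0623) and in the 6 libraries alone (0.0542).

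**Figure D2:**
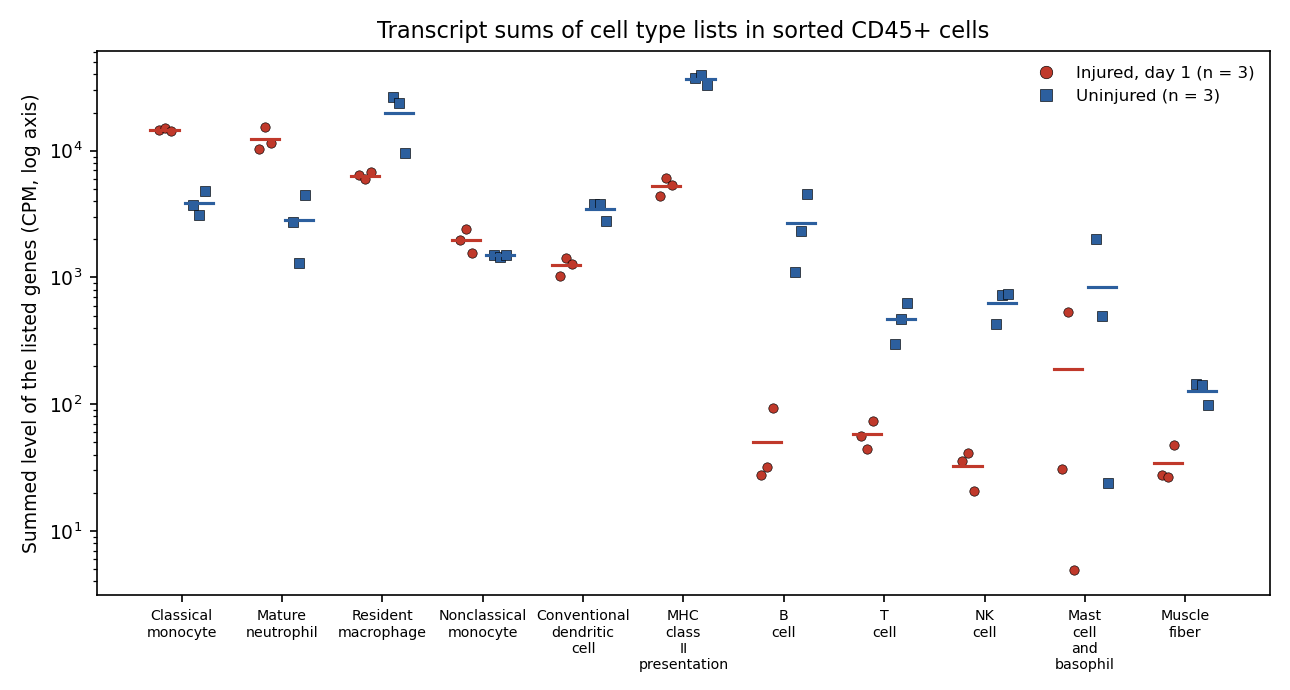
Summed CPM of the listed genes (log axis) for 11 gene lists in the 3 injured (red circles) and 3 uninjured (blue squares) CD45+ libraries, replicates 1, 2 and 3 from left to right, with a bar at the group mean. Sums of B, T and NK cell genes are at most 92.5 CPM in injured libraries and at least 297 CPM in uninjured ones, while mast cell sums scatter within both groups.

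Dendritic cells take up antigen and present it to T cells. Of 14 genes of conventional dendritic cells 12 fell and 1 rose, with a median of -2.38. As for lymphocytes, the filter on low counts can favour falls of the less abundant genes. Xcr1, the chemokine receptor gene of the cross-presenting subset, was at 3.28, 8.82 and 0.934 CPM in injured and 49.8, 73.8 and 43.8 CPM in uninjured cells (log2 fold change -3.68 ± 0.58, adjusted p = 9.04e-05). Clec9a, a receptor gene of the same subset for dead cells, was at 2.02, 4.66 and 3.04 CPM in injured and 34.9, 34.4 and 21.5 CPM in uninjured cells (log2 fold change -3.21 ± 0.59, adjusted p = 0.000193). The groups did not overlap for either gene, nor for the transcription factor gene Batf3 that this subset needs (-3.03 log2). Mgl2, a lectin gene of the other subset and of macrophages, was at 48.3, 122 and 117 CPM in injured and 1269, 1156 and 700.1 CPM in uninjured cells (log2 fold change -3.44 ± 0.47, adjusted p = 7.34e-05). Ccr7, the receptor that guides dendritic cells and lymphocytes to lymph nodes, was at 1.26, 28.7 and 5.37 CPM in injured and 147, 172 and 460.0 CPM in uninjured cells, and its injured replicate 2 stood above the other injured libraries (log2 fold change -4.46 ± 1.02, adjusted p = 0.00314). Cd24a, which marks the cross-presenting subset but also neutrophils, rose to 511, 656 and 537 CPM in injured cells, against 214, 242 and 294 CPM in uninjured cells (1.18 ± 0.35, adjusted p = 0.0122; 0.0546 without uninjured replicate 1).

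Plasmacytoid dendritic cells, which release type I interferon, were represented by 7 tested genes, of which 4 fell, a count that the filter on low counts favours as it does for lymphocytes. Siglech, their defining lectin gene (chromosome 7, 55768178 to 55778925), was at 0.505, 1.47 and 0.234 CPM in injured and 125, 224 and 63.5 CPM in uninjured cells (log2 fold change -7.51 ± 0.68, adjusted p = 5.22e-07). The lymphoid genes Ly6d and Tcf4 fell as well, by 6.30 and 0.95 on the log2 scale, and both are also made by B cells or their precursors. Bst2, which interferon induces in many cells, was at 150.1, 168 and 172 CPM in injured and 172, 142 and 118 CPM in uninjured cells and did not pass (0.18 ± 0.15, adjusted p = 0.397).

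The genes of MHC class II presentation all have a part in showing peptides to CD4 T cells, and they share promoter elements named the X box and the Y box, which in vertebrates are bound by a complex that recruits the coactivator Ciita. Of the 9 listed genes 9 fell, and the groups overlapped for none. Of all genes 18.5% fell and 43% did not overlap. The promoter stretches below are shown because the genes they belong to fell together while differing in depth of the fall. They are 100 bases each from the RefSeq start-site windows (250 bases before to 50 after a start, GRCm38.p6), 5′ to 3′ on the gene's strand. Capitals mark matches of the Y box motif TGATTGG and, upstream of it in the H2-Eb1 and H2-DMb1 stretches, of an X box motif. Each was searched on both strands.
H2-Eb1 (chr17:34305744-34305843, plus strand): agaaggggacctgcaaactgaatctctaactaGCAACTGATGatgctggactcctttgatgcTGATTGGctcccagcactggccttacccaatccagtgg
H2-DMb1 (chr17:34153066-34153165, plus strand): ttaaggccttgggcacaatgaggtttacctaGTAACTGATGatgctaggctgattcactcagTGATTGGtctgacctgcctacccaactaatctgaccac
H2-Aa (chr17:34287824-34287923, minus strand): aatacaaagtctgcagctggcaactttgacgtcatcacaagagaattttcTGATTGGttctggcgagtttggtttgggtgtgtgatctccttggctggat
H2-Oa (chr17:34092279-34092378, plus strand): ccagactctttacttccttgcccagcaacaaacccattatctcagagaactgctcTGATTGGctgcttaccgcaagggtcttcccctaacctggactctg
H2-Ob (chr17:34238799-34238898, plus strand): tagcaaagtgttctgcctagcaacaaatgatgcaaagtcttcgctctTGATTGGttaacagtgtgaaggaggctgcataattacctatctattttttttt

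Of the 9 listed genes 7 had a RefSeq window, and the Y box letters lay in 6 of them, 45 to 92 bases before the start: H2-Aa, H2-DMb1, H2-DMb2, H2-Eb1, H2-Oa and H2-Ob. Of all 32851 windows 7.82% held these letters on either strand. The X box letters lay in H2-Eb1 and H2-DMb1, upstream of the Y box with 20 and 21 bases between the pair, and in 0.782% of all windows. Only these letters were searched, so a window without a match may still hold an X box of another spelling. A match is a description of the letters and not of a bound site.

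The 3 most abundant class II genes, H2-Ab1, H2-Aa and H2-Eb1, were named after their values were seen and encode the chains of the peptide-binding molecules. H2-Ab1 was at 2166, 3048 and 2637 CPM in injured and 18425, 19211 and 16128 CPM in uninjured cells (log2 fold change -2.78 ± 0.90, adjusted p = 0.0246). H2-Aa, whose window holds the Y box letters 50 bases before the start, was at 1071, 1449 and 1307 CPM in injured and 9473, 9847 and 8008 CPM in uninjured cells (log2 fold change -2.84 ± 0.89, adjusted p = 0.0207). Every injured library was below every uninjured one for all 3. H2-Eb1 was at 702, 1059.5 and 857 CPM in injured and 7112, 7341 and 6059 CPM in uninjured cells (log2 fold change -2.97 ± 0.78, adjusted p = 0.00726). H2-Ob and H2-Oa, which encode the chains of the inhibitor H2-O that B cells use, were lower still, at 5.81, 16.9 and 12.6 and 9.85, 5.88 and 8.41 CPM in injured cells, against 145, 286 and 502 and 60.04, 94.6 and 173 CPM in uninjured cells (-4.71 ± 0.45 and -3.76 ± 0.47 log2, adjusted p = 6.34e-07 and 9.42e-06). In uninjured libraries both ran in the order of the B cell genes, lowest in replicate 1 and highest in replicate 3. H2-DMa and H2-DMb1, which encode the peptide editor H2-M, fell by 2.11 and 1.94 on the log2 scale, and Ciita by 2.62. The fall of H2-Aa did not pass without injured replicate 1, 2 or 3 (adjusted p = 0.0741, 0.0595 and 0.0601), with DESeq2 (0.0848) or with no filter on low counts (0.0587). That of H2-Ab1 did not pass without injured replicate 1, 2 or 3 (0.0847, 0.0656 and 0.0699), without uninjured replicate 2 (0.0501) or with no filter (0.0693). In the 6 libraries alone both falls passed (-2.86 ± 0.14 log2 for H2-Aa and -2.80 ± 0.14 for H2-Ab1, adjusted p = 9.07e-07 and 1.04e-06).

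**Figure D3:**
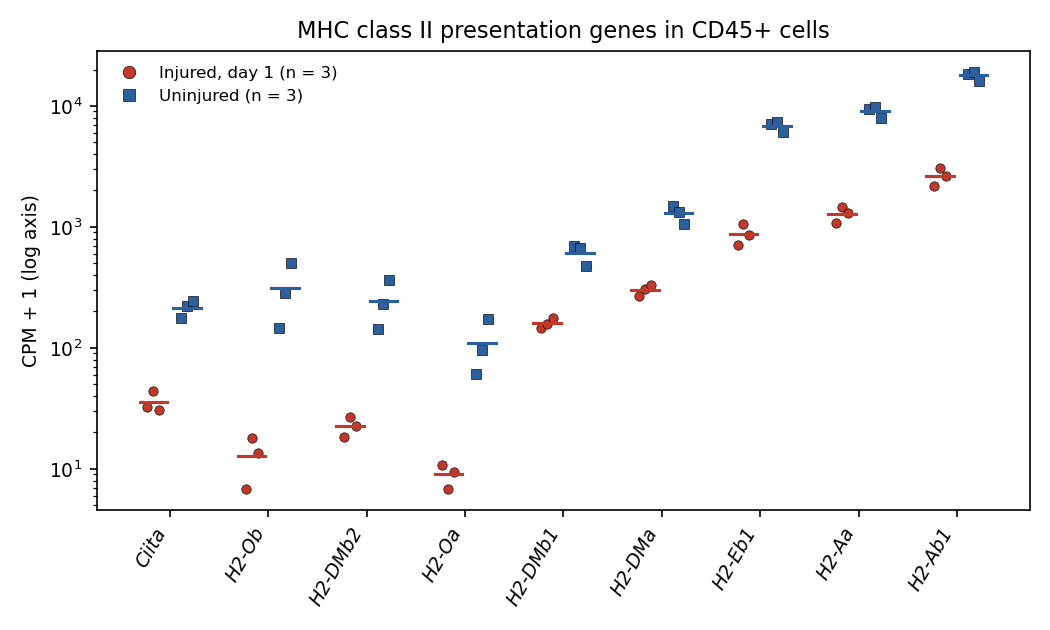
CPM + 1 (log axis) of 9 genes of MHC class II presentation in the 3 injured (red circles) and 3 uninjured (blue squares) CD45+ libraries, with a bar at the group mean. The groups do not overlap for any gene, and H2-Ob, H2-DMb2 and H2-Oa are lowest in replicate 1 and highest in replicate 3 among the uninjured libraries.

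Class I presentation genes, which every nucleated cell uses, moved less. Of 11 genes 1 rose and 3 fell (9.09% and 27.3%, against 16% and 18.5% of all genes), and the median was -0.22. In the 6 libraries alone 5 fell. The fall of H2-D1 (adjusted p = 0.0381) ended on leaving out any 1 of the 6 libraries (0.0729 to 0.239) and with no filter on low counts (0.143). The heavy chain gene H2-K1 was at 1556, 1589 and 1352 CPM in injured and 2205, 2224 and 2467 CPM in uninjured cells (log2 fold change -0.62 ± 0.15, adjusted p = 0.00296). The immunoproteasome subunit gene Psmb9 was at 66.96, 95.3 and 85.9 CPM in injured and 153, 153 and 150.3 CPM in uninjured cells (log2 fold change -0.88 ± 0.23, adjusted p = 0.00397). Erap1, which encodes the peptidase that trims peptides for class I, rose to 86.2, 90.4 and 96.7 CPM in injured cells, against 54.8, 53.2 and 56.96 CPM in uninjured cells (log2 fold change 0.73 ± 0.13, adjusted p = 0.000132). Reads can be shared between the class I genes, which are close in sequence, and the same holds for Lyz1 and Lyz2, for Cxcl1, Cxcl2 and Cxcl3 and for ribosomal protein genes with processed copies, so that their values are uncertain.

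Of 22 genes of resident macrophages 16 fell and none rose, with a median of -2.37. For genes near 0 after injury, such as Vsig4, the filter on low counts favours falls. Summed over the list they were at 6400, 5931 and 6734 CPM in injured and 26504, 23948 and 9601 CPM in uninjured libraries. Uninjured replicate 3 stood apart from the other 2: it was the lowest of its group for 21 of the 22 genes, and replicate 1 was the highest for 20. Genes that mark the long-lived macrophages of many tissues were among the falls. Timd4, a receptor gene for phosphatidylserine on dying cells (chromosome 11, 46810800 to 46844332), was at 0.505, 4.17 and 0.701 CPM in injured and 91.1, 89.95 and 41.2 CPM in uninjured cells (log2 fold change -5.35 ± 0.60, adjusted p = 6.22e-07). Vsig4, a complement receptor gene, had 2 counts in injured and 279 counts in uninjured libraries (ratio 0.0065, 95% counting interval 0.000783 to 0.0237). Cd209f, a lectin gene, was at 6.57, 4.41 and 3.74 CPM in injured and 529.9, 366 and 50.9 CPM in uninjured cells (log2 fold change -6.01 ± 0.86, adjusted p = 0.000522).

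Gas6, which encodes the ligand that bridges dying cells to the receptors Axl and Mertk, was at 45.98, 33.8 and 64.7 CPM in injured and 611, 656 and 182 CPM in uninjured cells (log2 fold change -3.32 ± 0.42, adjusted p = 9.06e-06). The hyaluronan receptor gene Lyve1 was at 4.04, 56.8 and 21.3 CPM in injured and 599.7, 321 and 115 CPM in uninjured cells (log2 fold change -3.66 ± 1.09, adjusted p = 0.0154). The folate receptor gene Folr2 was at 37.1, 23.8 and 40.2 CPM in injured and 296, 266 and 51.2 CPM in uninjured cells (log2 fold change -2.60 ± 0.47, adjusted p = 0.000498). The fall of Lyve1 did not pass without injured replicate 1 (adjusted p = 0.0626) or 3 (0.0595), without uninjured replicate 1 (0.0722), in the 6 libraries alone (0.0659), or with DESeq2 (0.119). For Lyve1 and Folr2 the groups did not overlap, yet uninjured replicate 3 lay closer to the injured libraries than the other uninjured ones did. Selenop, which encodes a selenium carrier, kept 1219, 1214 and 1352 CPM after injury, against 8258, 7549 and 2336 CPM in uninjured cells (log2 fold change -2.26 ± 0.35, adjusted p = 7.37e-05). The complement genes C1qa and C1qc fell by 2.11 and 2.59 on the log2 scale. The call of C1qa ended without injured replicate 2 (adjusted p = 0.0507), with no filter (0.0518) and with DESeq2 (0.448), and C1qb did not pass (1026, 920.0 and 1163 CPM in injured and 3369, 3018 and 1632 CPM in uninjured cells; -1.37 ± 0.56, adjusted p = 0.0761), although it passed in the 6 libraries alone (0.00389).

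Other genes of the list did not pass, among them those that macrophages of injured tissue also express. Mrc1, which encodes the mannose receptor CD206, was at 471, 533 and 605 CPM in injured and 790.3, 753 and 311 CPM in uninjured cells (-0.20 ± 0.38, adjusted p = 0.729). The scavenger receptor gene Stab1 was at 986, 755 and 1083 CPM in injured and 1005, 961 and 387 CPM in uninjured cells. The engulfment receptor gene Mertk was at 59.4, 58.3 and 46.9 CPM in injured and 46.04, 43.4 and 21.2 CPM in uninjured cells, with every injured library above every uninjured one (0.57 ± 0.30, adjusted p = 0.15; 0.0499 with no filter on low counts). The chemokine gene Ccl8 was at 8.59, 32.3 and 71.5 CPM in injured and 318, 344 and 8.300 CPM in uninjured cells and its groups overlapped. Its fall (adjusted p = 0.0487) ended without injured replicate 1 (0.151) or 2 (0.141), without uninjured replicate 1 (0.132) or 2 (0.147), and with DESeq2 (0.0827; 0.00113 to 0.538 over all alternatives).

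Genes of classical monocytes, the Ly6C-high cells that blood sends into damaged tissue, rose in 9 of 16 cases and fell in none, with a median of 1.73. Their sum was 14442, 15168 and 14345 CPM in injured and 3763, 3100 and 4808 CPM in uninjured libraries, without overlap. Clec4e, a receptor gene for dead cell products and mycobacterial glycolipid, was at 1351, 1438 and 1155 CPM in injured and 71.4, 35.00 and 154 CPM in uninjured cells (log2 fold change 3.92 ± 0.90, adjusted p = 0.00645). F10, the gene of coagulation factor X, was at 426, 354 and 364 CPM in injured and 19.9, 21.4 and 49.5 CPM in uninjured cells (log2 fold change 3.66 ± 0.40, adjusted p = 3.29e-06). Chil3, a chitinase-like protein gene, was at 2269, 1913 and 2775 CPM in injured and 123, 163 and 537 CPM in uninjured cells (log2 fold change 3.08 ± 0.68, adjusted p = 0.00337). With DESeq2 the rise of Clec4e did not pass (adjusted p = 0.191). The groups did not overlap for these 3 genes, and for Chil3 uninjured replicate 3 was the highest of its group. The co-receptor gene Cd14, whose product hands bacterial lipopolysaccharide to TLR4, was at 2095, 2862 and 1999.5 CPM in injured and 485, 355 and 358 CPM in uninjured cells (log2 fold change 2.54 ± 0.52, adjusted p = 0.00113). The genes of 2 surface proteins that define the classical monocyte did not pass in the fit to all 24 libraries. Ly6c2 was at 323, 242 and 311 CPM in injured and 166, 141 and 321 CPM in uninjured cells (0.48 ± 0.24, adjusted p = 0.137). The chemokine receptor gene Ccr2 was at 681, 637 and 625 CPM in injured and 472, 326 and 334 CPM in uninjured cells (0.78 ± 0.35, adjusted p = 0.105), without overlap. Ccr2 passed in the 6 libraries alone (adjusted p = 0.00257), and Ly6c2 passed without uninjured replicate 3 (0.000882) and with no filter on low counts (0.0108).

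Nonclassical monocytes patrol vessels, and 6 of 10 of their genes fell while none rose (median -1.85). Ear2, an RNase gene, was at 31.3, 20.3 and 32.00 CPM in injured and 306, 301 and 229 CPM in uninjured cells (log2 fold change -3.32 ± 0.26, adjusted p = 2.81e-08). Ace, the angiotensin-converting enzyme gene, was at 6.82, 5.39 and 6.31 CPM in injured and 51.02, 62.8 and 50.1 CPM in uninjured cells (log2 fold change -3.14 ± 0.26, adjusted p = 3.58e-09). The receptor gene Cx3cr1, used by these monocytes and by resident macrophages, was at 123, 82.1 and 92.7 CPM in injured and 491, 379 and 434 CPM in uninjured cells (log2 fold change -2.13 ± 0.37, adjusted p = 0.000153). No injured library reached an uninjured one for these genes. Nr4a1, the transcription factor gene that nonclassical monocytes need but that activation also induces, ran the other way at 1622, 2037 and 1193 CPM in injured and 650.0, 431 and 541 CPM in uninjured cells and did not pass (1.58 ± 0.63, adjusted p = 0.065). It passed with DESeq2 (adjusted p = 0.0497) and in the 6 libraries alone (0.000726), where 8 of the 10 genes fell and 1 rose. Through Nr4a1 the sum of the list was higher after injury, at 1985, 2433 and 1552 CPM in injured and 1507, 1457 and 1517 CPM in uninjured libraries.

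Neutrophils are the first leukocytes to reach damaged muscle. Of 17 genes of mature neutrophils 14 rose and none fell, against 16% of all genes that rose, with a median of 2.08. The groups did not overlap for 15 of them, nor for 43% of all genes. Their sum was 10386, 15342 and 11552 CPM in injured and 2749, 1301 and 4474 CPM in uninjured libraries, and uninjured replicate 2 was the lowest of its group for 15 of the 17 genes. Il1r2, the decoy receptor gene for interleukin 1, was at 731, 1223 and 891 CPM in injured and 65.5, 27.8 and 74.4 CPM in uninjured cells (log2 fold change 4.08 ± 0.73, adjusted p = 0.00048). The formyl peptide receptor gene Fpr2 was at 40.4, 49.2 and 50.4 CPM in injured and 10.2, 5.495 and 11.4 CPM in uninjured cells (log2 fold change 2.36 ± 0.42, adjusted p = 0.000404). S100a8, which encodes a chain of calprotectin, was at 2105, 3575 and 2693 CPM in injured and 594, 344 and 1040.4 CPM in uninjured cells (log2 fold change 2.08 ± 0.38, adjusted p = 0.000467). Ly6g, the surface marker gene used to sort neutrophils, did not pass and its groups overlapped, at 6.82, 8.82 and 2.34 CPM in injured and 2.61, 9.83 and 16.9 CPM in uninjured cells (-0.70 ± 0.77, adjusted p = 0.526). Retnlg, a gene of blood neutrophils, was at 68.7, 125 and 106 CPM in injured and 117, 71.2 and 208 CPM in uninjured cells (-0.40 ± 0.71, adjusted p = 0.714). The count of 14 was 8 with DESeq2, 9 without uninjured replicate 1 and 5 in the 6 libraries alone with a replicate block.

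Genes of neutrophil granules that are made during maturation in the marrow rose in 5 of 7 tested cases of 13 listed. The filter on low counts can favour rises of genes near 0 in uninjured libraries, so that this count is a description. The proteinase gene Prtn3 was at 14.1, 19.4 and 16.1 CPM in injured and 1.19, 0 and 2.86 CPM in uninjured cells (log2 fold change 3.59 ± 0.77, adjusted p = 0.00099). The collagenase gene Mmp8 was at 155, 212 and 199 CPM in injured and 47.9, 36.4 and 109 CPM in uninjured cells (log2 fold change 1.55 ± 0.35, adjusted p = 0.00234). S100a6, a calcium-binding protein gene that many cells express, was at 1096, 1271 and 1229.7 CPM in injured and 595, 577 and 559 CPM in uninjured cells (log2 fold change 1.05 ± 0.12, adjusted p = 2.7e-07). The groups did not overlap for these 3 genes. Ngp and Camp, which encode granule proteins of immature neutrophils, did not pass the filter on low counts, with 2 and 5 counts in injured and 561 and 177 counts in uninjured libraries, nearly all of the uninjured counts in replicate 2. Ltf, the lactoferrin gene, was also high in uninjured replicate 2 alone (9.601, 5.88 and 10.3 CPM in injured and 0, 148 and 2.29 CPM in uninjured cells), the library that was lowest for mature neutrophil genes.

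Of 4 tested eosinophil genes 1 rose and 1 fell, and of 8 mast cell and basophil genes 1 fell. That gene was Kit, a growth factor receptor gene, whose groups overlapped. Its fall (adjusted p = 0.0247) ended with no filter (0.101), with DESeq2 (0.0797), in the 6 libraries alone (0.138), without injured replicate 1 or 3 (0.101 and 0.0975) and without uninjured replicate 1 or 2 (0.135 and 0.0584). Without injured replicate 2 or uninjured replicate 3, 5 and 4 of these genes fell. Siglecf, a lectin gene of eosinophils and of some macrophages and neutrophils, was at 73.8, 85.8 and 92.96 CPM in injured and 26.6, 7.23 and 10.02 CPM in uninjured cells (log2 fold change 2.51 ± 0.58, adjusted p = 0.00325; adjusted p = 0.434 with DESeq2), while Il5ra, the receptor gene of the eosinophil growth factor, had 1 count in injured and 64 counts in uninjured libraries. The eosinophil granule genes Epx and Ear1 had no count in the 6 libraries. Mast cell genes differed within the groups by far more than between them. The chymase gene Mcpt4 was at 0.253, 134 and 0 CPM in injured and 559.6, 128 and 0.286 CPM in uninjured cells, high in injured replicate 2 and in uninjured replicates 1 and 2 (-2.36 ± 2.14, adjusted p = 0.455). All 8 tested mast cell and basophil genes of 12 listed were highest in replicate 2 among injured libraries and in replicate 1 among uninjured ones, and the groups overlapped for all 8.

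Among 6 tested genes of platelets 2 rose and 2 fell. The falls were those of Itga2b (-2.40 log2, adjusted p = 0.0176) and Itgb3 (-1.45 log2, adjusted p = 0.0389). Over the alternatives their adjusted p reached 0.171 and 0.196. Ppbp, which encodes the chemokine precursor that platelets store and monocytes also make, was at 511, 591 and 869 CPM in injured and 4.98, 5.495 and 6.297 CPM in uninjured cells (log2 fold change 6.88 ± 0.50, adjusted p = 2.7e-08), with no overlap. Pf4, another stored chemokine that macrophages make, was at 2346, 2850.5 and 3459.7 CPM in injured and 1529.5, 1483 and 509 CPM in uninjured cells (log2 fold change 1.30 ± 0.36, adjusted p = 0.00939; 0.0756 in the 6 libraries alone), while Tubb1, a gene specific to megakaryocytes and platelets, had no count in the 6 libraries. Hemoglobin genes were almost confined to uninjured replicate 1, where Hbb-bs was at 338, 0 and 0.286 CPM in the 3 uninjured libraries and at 0 in the injured ones, and no red cell gene passed in the fit to all 24 libraries, although Hbb-bs did with DESeq2 (adjusted p = 1.26e-09).

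Cells outside the gate left small signals. Of 12 muscle fiber genes tested of 14 listed 9 fell, and the skeletal actin gene Acta1 was at 4.295, 4.41 and 9.34 CPM in injured and 51.97, 49.5 and 29.8 CPM in uninjured cells (log2 fold change -2.85 ± 0.54, adjusted p = 0.000502). In the 6 libraries alone 5 muscle fiber genes fell of 7 tested, and without injured replicate 2 only 4 fell. Of 10 satellite cell genes tested 1 rose, Musk (3.00 log2, adjusted p = 0.0286, up to 0.172 over the alternatives). In the same list 1 fell, Des (-3.26 log2, adjusted p = 0.0046), and Pax7 and Myod1 had no count in the 6 libraries. Summed, the list was at 1.26, 4.17 and 5.37 CPM in injured and 4.98, 12.7 and 8.59 CPM in uninjured libraries. Of 12 endothelial genes 3 fell, among them Pecam1, which leukocytes also express, at 9.096, 17.4 and 16.8 CPM in injured and 25.4, 34.1 and 83.3 CPM in uninjured cells (log2 fold change -1.71 ± 0.37, adjusted p = 0.0014). Of 12 stromal genes 11 were highest in injured replicate 3 among the injured libraries. The proteoglycan gene Dcn was at 1.26, 0 and 114 CPM in injured and 10.4, 13.02 and 8.300 CPM in uninjured cells (1.87 ± 1.36, adjusted p = 0.315). The 1 stromal gene that rose was Gsn, for an actin-severing protein that macrophages also make (log2 fold change 1.27 ± 0.24, adjusted p = 0.000517).

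The 15 largest rises included genes of secreted proteins and of a kinase. Spp1, which encodes osteopontin, was at 7633, 6363 and 4482 CPM in injured and 27.8, 34.4 and 50.7 CPM in uninjured cells (log2 fold change 7.36 ± 1.00, adjusted p = 4.7e-05). Timp1, the metalloproteinase inhibitor gene, was at 177, 141 and 161 CPM in injured and 0, 0 and 2.58 CPM in uninjured cells (log2 fold change 7.58 ± 0.84, adjusted p = 2.6e-06). Saa3, an acute phase protein gene, was at 37.1, 108 and 68.2 CPM in injured and 0, 0.578 and 1.14 CPM in uninjured cells (log2 fold change 6.97 ± 0.74, adjusted p = 1.68e-06). The sphingosine kinase gene Sphk1 was at 32.3, 20.6 and 16.3 CPM in injured and 0, 0.289 and 0.859 CPM in uninjured cells (log2 fold change 5.91 ± 0.76, adjusted p = 4.02e-06). The versican gene Vcan was at 530.4, 779.6 and 677 CPM in injured and 14.5, 4.05 and 21.5 CPM in uninjured cells (log2 fold change 5.63 ± 0.35, adjusted p = 4.73e-10). Dmkn, best known as a skin gene, was at 75.5, 86.98 and 61.4 CPM in injured and 0.475, 0 and 1.72 CPM in uninjured cells (log2 fold change 6.65 ± 1.02, adjusted p = 4.67e-05). Every injured library was above every uninjured one for each of these 6 genes.

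The 15 largest falls included genes of B cells, T cells, plasmacytoid dendritic cells and resident macrophages. Lyz1, the lysozyme gene beside Lyz2, was at 9.601, 20.3 and 5.37 CPM in injured and 1292, 1161 and 896 CPM in uninjured cells (log2 fold change -6.57 ± 0.45, adjusted p = 5.19e-08), while Lyz2 did not pass. Retnla, a secreted protein gene of alternatively activated macrophages, was at 9.35, 88.7 and 20.8 CPM in injured and 4246, 4642 and 2212 CPM in uninjured cells (log2 fold change -6.54 ± 0.88, adjusted p = 4.26e-05). Pla2g2d, a secreted phospholipase gene of dendritic cells and macrophages, had 1 count in injured and 1432 counts in uninjured libraries (ratio 0.000633, 95% counting interval 1.6e-05 to 0.00353). Cd8b1 had 2 counts in injured and 396 counts in uninjured libraries (ratio 0.00458, 95% counting interval 0.000552 to 0.0166), and its fall did not pass with DESeq2 (adjusted p = 0.124). Cd209g and C1qtnf1 were each lowest in replicate 3 among uninjured libraries, as most resident macrophage genes were, and Fcer2a, the low-affinity IgE receptor gene of B cells, was highest there (0, 1.23 and 4.204 CPM in injured and 83.8, 166 and 346 CPM in uninjured cells; log2 fold change -6.73 ± 0.81, adjusted p = 7.24e-06).

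**Figure D4:**
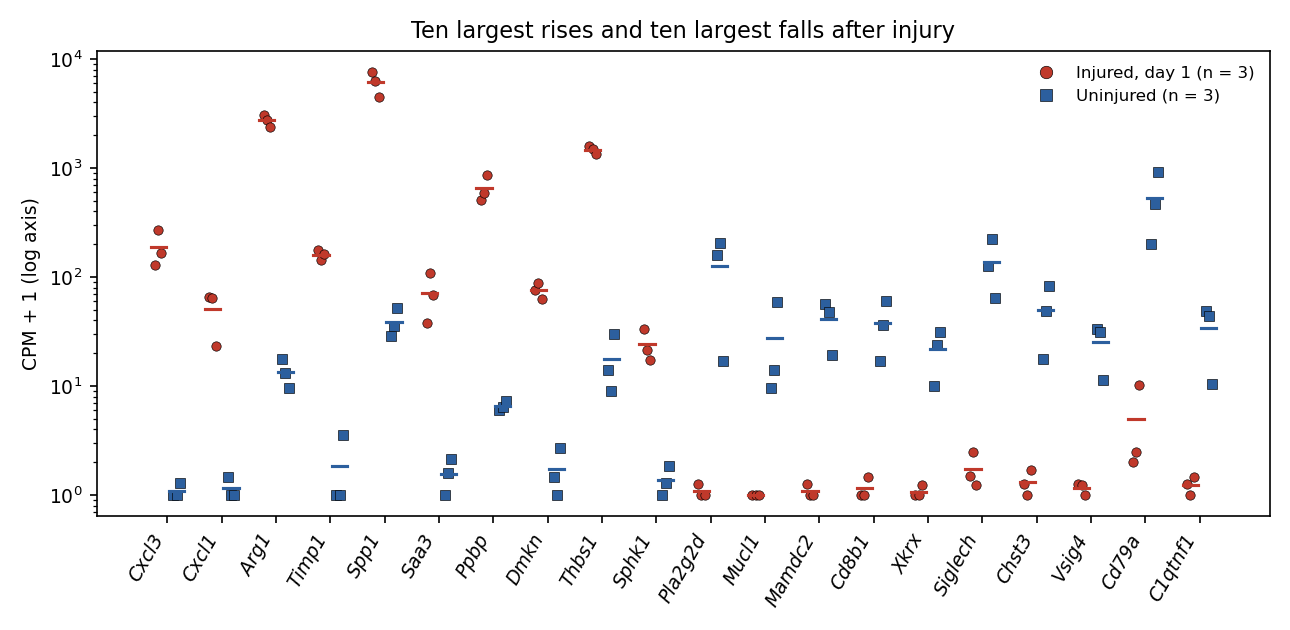
CPM + 1 (log axis) of the genes with the 10 largest rises (left) and the 10 largest falls (right), out of the 15 named in each direction, in the 3 injured (red circles) and 3 uninjured (blue squares) CD45+ libraries, with a bar at the group mean. No injured library overlaps an uninjured one for any of these genes, and Pla2g2d and C1qtnf1 are lowest in replicate 3 among the uninjured libraries.

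Cytokine genes rose in 10 of 14 tested cases of 16 listed and fell in none, with a median of 3.02. Tnf, which encodes tumor necrosis factor, was at 576, 786 and 696 CPM in injured and 37.3, 29.5 and 36.9 CPM in uninjured cells (log2 fold change 4.31 ± 0.24, adjusted p = 1e-11). Csf1, the growth factor gene of macrophages, was at 104.6, 104.6 and 90.6 CPM in injured and 13.1, 5.78 and 14.9 CPM in uninjured cells (log2 fold change 3.14 ± 0.26, adjusted p = 5.82e-09). Il1rn, which encodes the interleukin 1 receptor antagonist, was at 1252, 1259.9 and 859 CPM in injured and 64.8, 25.5 and 79.9 CPM in uninjured cells (log2 fold change 4.31 ± 0.68, adjusted p = 0.000175). Il23a, a subunit gene of interleukin 23, was at 25.5, 62.2 and 33.9 CPM in injured and 0.712, 0 and 2.004 CPM in uninjured cells (log2 fold change 5.46 ± 0.73, adjusted p = 6.06e-06). For these 4 genes no injured library lay among the uninjured ones. Il1b, chosen after its values were seen, was the most abundant cytokine gene of the list in the injured libraries and did not pass, at 3864, 6517 and 4222 CPM in injured and 814, 318 and 1425 CPM in uninjured cells (2.51 ± 0.96, adjusted p = 0.057; 0.0332 in the 6 libraries alone). With DESeq2 6 cytokine genes rose.

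Of 20 chemokine genes 10 rose and 4 fell (20%, near the 18.5% of all genes that fell), and in the 6 libraries alone 2 fell. The genes of the neutrophil attractants CXCL3 and CXCL1 were almost at 0 in uninjured libraries. Cxcl3 had 2323 counts in injured and 1 count in uninjured libraries (ratio 2105, 95% counting interval 378 to 83180), and Cxcl1 had 612 counts in injured and 2 counts in uninjured libraries (ratio 277, 95% counting interval 76.4 to 2295). Among genes for monocyte attraction Ccl2 was at 2865, 3914 and 3685 CPM in injured and 88.99, 58.1 and 72.99 CPM in uninjured cells (log2 fold change 5.57 ± 0.84, adjusted p = 0.000115). Ccl5, made by NK and T cells, fell, at 11.1, 7.596 and 0 CPM in injured and 149, 187 and 167 CPM in uninjured cells (log2 fold change -4.76 ± 0.74, adjusted p = 0.000103), and Cxcl16, a membrane-bound chemokine gene, fell by 0.83 on the log2 scale.

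Chemokine receptor genes were split, with 4 that rose and 7 that fell of 16. Ccr1, Ccrl2 and Cxcr2, receptor genes of myeloid cells, were among the rises. Ccr1 was at 1153, 1379.7 and 1198 CPM in injured and 217, 136 and 171 CPM in uninjured cells (log2 fold change 2.83 ± 0.38, adjusted p = 2.85e-05). Ccrl2, an atypical receptor gene of activated myeloid cells, was at 1002, 1427 and 819 CPM in injured and 62.2, 26.6 and 102 CPM in uninjured cells (log2 fold change 4.09 ± 0.36, adjusted p = 7.95e-08). Receptor genes of lymphocytes were among the falls. Cxcr5, which guides B cells to follicles, was at 1.77, 6.37 and 6.31 CPM in injured and 53.4, 93.4 and 195 CPM in uninjured cells (log2 fold change -4.55 ± 0.58, adjusted p = 2.06e-05), and Ccr6 had no count in injured libraries (at least 80.2-fold lower).

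NF-kB is a family of transcription factors that cytokine and Toll-like receptors switch on, and many of its targets shut it off again. Of 15 such feedback genes 8 rose and 2 fell (median 0.62). Nfkbia, which encodes the inhibitor IkBa, was at 2507, 3717 and 2417 CPM in injured and 387, 322 and 559.6 CPM in uninjured cells (log2 fold change 2.77 ± 0.19, adjusted p = 3.04e-10). Tnfaip3, the gene of the ubiquitin-editing enzyme A20, was at 109.9, 128 and 78.01 CPM in injured and 28.7, 14.2 and 36.9 CPM in uninjured cells (log2 fold change 1.98 ± 0.35, adjusted p = 9.16e-05). Nfkbiz, an atypical inhibitor gene, was at 476, 652 and 418 CPM in injured and 168, 115 and 157 CPM in uninjured cells (log2 fold change 1.81 ± 0.28, adjusted p = 3.59e-05). The subunit gene Nfkb1 ran the other way, at 128, 110.0 and 104 CPM in injured and 154, 199.6 and 208 CPM in uninjured cells (log2 fold change -0.72 ± 0.16, adjusted p = 0.0014). The promoter stretches below hold the motif GGGANTTCC (capitals, either strand) and are printed because the genes they belong to rose. Nfkb2 encodes a subunit and Tnip1 a partner of A20, and Tnip1 was named after its values were seen.
Tnfaip3 (chr10:19015411-19015510, minus strand): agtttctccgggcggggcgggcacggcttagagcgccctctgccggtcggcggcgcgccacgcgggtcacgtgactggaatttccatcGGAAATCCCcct
Nfkb2 (chr19:46304637-46304736, plus strand): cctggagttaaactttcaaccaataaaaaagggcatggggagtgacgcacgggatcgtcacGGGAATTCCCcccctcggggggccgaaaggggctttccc
Tnip1 (chr11:54962943-54963042, minus strand): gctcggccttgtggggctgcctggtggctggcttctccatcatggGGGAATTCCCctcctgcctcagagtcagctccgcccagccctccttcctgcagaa

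Of the 15 genes 12 had a RefSeq window, and 6 of these held the motif: Bcl3, Nfkb2, Rel, Tnfaip3, Tnip1 and Tnip3. Of all windows 1.68% held it, and in Nfkb2 and Tnip1 matches on the 2 strands overlap. Of the 6 genes Bcl3, Nfkb2, Tnfaip3 and Tnip1 rose, Tnip3 fell and Rel did not pass. The rise of Bcl3 ended without injured replicate 2 (adjusted p = 0.109) and uninjured replicate 1 or 2 (0.0821 and 0.0872). The fall of Tnip3 ended without injured replicate 1, 2 or 3 (0.0994, 0.0773 and 0.0838), without uninjured replicate 1 or 2 (0.107 and 0.0682), and with DESeq2 (0.272).

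Immediate early genes, which cells switch on within minutes of a stimulus, rose in 14 of 15 cases (median 1.83). Jun was at 1436, 1806 and 1498 CPM in injured and 609.9, 439 and 501 CPM in uninjured cells (log2 fold change 1.61 ± 0.15, adjusted p = 2.53e-08). Egr1 was at 1787, 2845 and 1967 CPM in injured and 369, 249 and 340.3 CPM in uninjured cells (log2 fold change 2.78 ± 0.42, adjusted p = 6.21e-05). Ier3 was at 1285, 2417 and 1613 CPM in injured and 56.2, 19.1 and 71.8 CPM in uninjured cells (log2 fold change 5.17 ± 0.39, adjusted p = 1.24e-08), and no injured library was below an uninjured one for these 3 genes.

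Of 17 genes of Toll-like receptors and inflammasomes 10 rose and 3 fell (17.6%, near the 18.5% of all genes that fell). The adaptor gene Myd88 was at 393, 544 and 401 CPM in injured and 201, 154 and 190.1 CPM in uninjured cells (log2 fold change 1.30 ± 0.17, adjusted p = 2.07e-06), and the surface receptor genes Tlr2 and Tlr4, which bind bacterial lipids and products of damaged cells, were at 388, 344 and 263 and 52.05, 80.6 and 54.4 CPM in injured cells, against 110.1, 98.05 and 112 and 21.4, 25.5 and 18.9 CPM in uninjured cells. Tlr3, the endosomal receptor gene for double-stranded RNA, fell, at 2.53, 0.980 and 0.934 CPM in injured and 10.4, 10.1 and 8.300 CPM in uninjured cells (log2 fold change -2.69 ± 0.47, adjusted p = 8.96e-05). Phagocytic and scavenger receptor genes rose in 9 of 19 cases, in 4 with DESeq2, and fell in 4 (21.1%, near the share of all genes). Axl, which recognises dying cells through Gas6, was at 25.3, 11.8 and 24.99 CPM in injured and 108, 83.9 and 95.3 CPM in uninjured cells (log2 fold change -2.21 ± 0.21, adjusted p = 3.68e-08), the opposite direction to Fcgr1, the high-affinity IgG receptor gene, at 740.1, 882 and 743 CPM in injured and 134, 147 and 80.1 CPM in uninjured cells (log2 fold change 2.71 ± 0.29, adjusted p = 6.66e-07). Of 14 complement genes 5 rose and 5 fell, and with DESeq2 2 rose. Among the falls Cd55, the decay-accelerating factor gene, was at 1.26, 7.84 and 3.74 CPM in injured and 42.5, 86.5 and 197 CPM in uninjured cells, highest in uninjured replicate 3 (log2 fold change -4.65 ± 0.54, adjusted p = 2.44e-06).

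Interferon-stimulated genes moved in both directions, 6 up and 5 down of 21 (28.6% and 23.8%, against 16% and 18.5% of all genes), with a median of 0.11. The 6 rises were 3 without injured replicate 1, 2 without injured replicate 2 and 2 without uninjured replicate 2. Oas1a, an antiviral sensor gene, was at 152, 181 and 143 CPM in injured and 76.7, 65.4 and 62.7 CPM in uninjured cells (log2 fold change 1.22 ± 0.22, adjusted p = 0.000183). Gbp2, a guanylate-binding protein gene that interferon gamma induces, was at 19.7, 19.6 and 14.9 CPM in injured and 76.7, 39.05 and 67.5 CPM in uninjured cells (log2 fold change -1.76 ± 0.24, adjusted p = 4.79e-06). The groups did not overlap for either. Among adhesion genes Itga5, a fibronectin receptor chain, was at 235, 185 and 176 CPM in injured and 53.4, 49.7 and 54.7 CPM in uninjured cells (log2 fold change 1.92 ± 0.25, adjusted p = 4.85e-06). Itga4, the chain that binds VCAM-1, was at 60.9, 47.8 and 71.7 CPM in injured and 183, 189 and 231 CPM in uninjured cells (log2 fold change -1.74 ± 0.33, adjusted p = 0.000315).

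Receptor genes for interleukins, interferons and growth factors rose in 11 of 18 cases and fell in 2. Il4ra, the shared receptor gene of interleukins 4 and 13, was at 838, 926 and 760.5 CPM in injured and 133, 143 and 200.1 CPM in uninjured cells (log2 fold change 2.41 ± 0.29, adjusted p = 3.32e-06). The accessory chain gene Il1rap was at 55.1, 76.9 and 83.1 CPM in injured and 14.95, 23.1 and 18.03 CPM in uninjured cells (log2 fold change 1.94 ± 0.27, adjusted p = 5.06e-06). The chains of the interferon gamma receptor went opposite ways. Ifngr2 was at 339, 368 and 372 CPM in injured and 166, 156 and 179.8 CPM in uninjured cells (log2 fold change 1.10 ± 0.19, adjusted p = 8.38e-05). Ifngr1 was at 588, 643 and 575 CPM in injured and 962, 822 and 834 CPM in uninjured cells (log2 fold change -0.54 ± 0.12, adjusted p = 0.00148).

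Of 23 genes linked to macrophages of repair 16 rose and 4 fell, with a median of 2.86. Arg1, which encodes arginase, was at 3055, 2763 and 2389 CPM in injured and 16.8, 12.1 and 8.59 CPM in uninjured cells (log2 fold change 7.75 ± 0.35, adjusted p = 7.89e-12). Tgm2, a transglutaminase gene, was at 922, 850.2 and 677 CPM in injured and 35.6, 32.97 and 77.3 CPM in uninjured cells (log2 fold change 4.07 ± 0.51, adjusted p = 8.81e-06). Igf1, a growth factor gene that macrophages supply to regenerating fibers, ran the other way, at 7.33, 18.4 and 13.1 CPM in injured and 166, 167 and 58.4 CPM in uninjured cells (log2 fold change -3.33 ± 0.41, adjusted p = 4.42e-06). Retnla, Lpl and Cd36 fell too. The 4 falls were 17.4% of the list, near the 18.5% of all genes, and the 16 rises were 69.6%, against 16% of all genes. The fall of Cd36 (adjusted p = 0.0305) ended with no filter on low counts (0.152), without injured replicate 1, 2 or 3 (0.126, 0.0593 and 0.0804) and without uninjured replicate 1 or 2 (0.117 and 0.089). Of 17 genes of matrix proteases and their inhibitors 9 rose and 1 fell. The protease gene Mmp19 was at 235, 357 and 238 CPM in injured and 32.04, 14.2 and 26.3 CPM in uninjured cells (log2 fold change 3.51 ± 0.28, adjusted p = 2.67e-09). The inhibitor gene Timp2 fell, at 26.3, 20.1 and 32.00 CPM in injured and 204, 204 and 67.8 CPM in uninjured cells (log2 fold change -2.60 ± 0.34, adjusted p = 8.1e-06).

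Ptgs2, the inducible cyclooxygenase gene of prostaglandin synthesis, was at 372, 561 and 369 CPM in injured and 30.4, 11.6 and 47.8 CPM in uninjured cells (log2 fold change 3.86 ± 0.59, adjusted p = 0.000111). Ltc4s and Hpgds, genes of leukotriene C4 and prostaglandin D2 synthesis, fell by 2.49 and 2.36 on the log2 scale, and both were lowest in replicate 3 among uninjured libraries. Of 12 immune checkpoint genes 4 rose and 2 fell, the rises including Lgals9, which encodes galectin 9 (576, 555 and 541 CPM in injured and 329, 309.8 and 299 CPM in uninjured cells; log2 fold change 0.83 ± 0.11, adjusted p = 4.32e-06), and the falls Cd40, the receptor gene for T cell help (30.3, 42.6 and 26.2 CPM in injured and 98.2, 94.00 and 79.3 CPM in uninjured cells; log2 fold change -1.45 ± 0.33, adjusted p = 0.00141). The 2 falls were 16.7% of the checkpoint list, near the 18.5% of all genes.

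Glycolysis genes rose in 13 of 17 cases and fell in none (median 1.39). Aldoa, the aldolase gene, was at 2022, 2019 and 1855 CPM in injured and 799, 783 and 793 CPM in uninjured cells (log2 fold change 1.31 ± 0.09, adjusted p = 1.46e-10). Ldha, a lactate dehydrogenase gene, was at 2089.8, 1858 and 1777 CPM in injured and 775, 675 and 728 CPM in uninjured cells (log2 fold change 1.39 ± 0.10, adjusted p = 4.47e-10). Hypoxia response genes rose in 10 of 16, among them the oxygen-sensing factor gene Hif1a (455, 505 and 466 CPM in injured and 77.1, 78.1 and 87.3 CPM in uninjured cells; log2 fold change 2.56 ± 0.18, adjusted p = 1.76e-10) and Egln3, a prolyl hydroxylase gene that limits it (26.8, 37.98 and 35.03 CPM in injured and 0.949, 0.289 and 1.43 CPM in uninjured cells; log2 fold change 5.18 ± 0.57, adjusted p = 2.62e-07). Oxidative phosphorylation genes rose in 15 of 20 by smaller amounts, with a median of 0.48. Atp5b, an ATP synthase subunit gene, was at 1449, 1508 and 1441 CPM in injured and 855, 828 and 884 CPM in uninjured cells (log2 fold change 0.78 ± 0.08, adjusted p = 1.44e-07).

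Genes that the antioxidant factor NRF2 controls rose in 14 of 18 cases. Hmox1, the heme oxygenase gene, was at 1197, 1291 and 1496 CPM in injured and 238, 274 and 277 CPM in uninjured cells (log2 fold change 2.34 ± 0.24, adjusted p = 3.23e-07). Osgin1 was at 186, 262 and 192 CPM in injured and 18.3, 19.1 and 37.2 CPM in uninjured cells (log2 fold change 3.11 ± 0.27, adjusted p = 7.76e-09). Of 16 genes of iron and heme handling 6 rose and 3 fell (18.8%, near the 18.5% of all genes that fell). Cd163, the receptor gene for hemoglobin and haptoglobin, fell, at 85.7, 98.5 and 103 CPM in injured and 324, 290.1 and 116 CPM in uninjured cells (log2 fold change -1.35 ± 0.30, adjusted p = 0.00132), and uninjured replicate 3 was close to the injured libraries. Blvra and Blvrb, the biliverdin reductase genes, went opposite ways, by 0.88 and -1.03 on the log2 scale (adjusted p = 0.000222 and 0.00017).

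Genes of the unfolded protein response, which enlarges the folding capacity of the endoplasmic reticulum, rose in 12 of 15 cases. Hspa5, the chaperone gene BiP, was at 2562, 2504 and 2721 CPM in injured and 692, 616 and 526 CPM in uninjured cells (log2 fold change 2.09 ± 0.13, adjusted p = 2.45e-11). Creld2 was at 274, 301 and 313 CPM in injured and 65.7, 53.8 and 50.4 CPM in uninjured cells (log2 fold change 2.38 ± 0.14, adjusted p = 1.37e-11). The integrated stress response list had 11 rises and 1 fall of 18. The amino acid transporter gene Slc3a2 was at 804, 771 and 753 CPM in injured and 244, 261 and 232 CPM in uninjured cells (log2 fold change 1.66 ± 0.12, adjusted p = 3.56e-10). Phgdh, the serine synthesis gene, fell, at 1.77, 4.17 and 5.37 CPM in injured and 5.696, 18.2 and 24.6 CPM in uninjured cells (log2 fold change -2.06 ± 0.49, adjusted p = 0.00297). Of 19 genes of lysosomes and lipid handling 14 rose and 2 fell. Ctsd, a cathepsin gene, was at 6715, 5527 and 5854 CPM in injured and 817, 623 and 831 CPM in uninjured cells (log2 fold change 2.99 ± 0.14, adjusted p = 4.04e-13). Plin2, which coats lipid droplets, was at 2288, 2998 and 2504 CPM in injured and 322, 314 and 336 CPM in uninjured cells (log2 fold change 3.00 ± 0.21, adjusted p = 4.73e-10). Of 16 cholesterol synthesis genes 5 fell and none rose, Dhcr7 at 11.6, 9.801 and 11.2 CPM in injured and 30.6, 35.00 and 26.9 CPM in uninjured cells (log2 fold change -1.50 ± 0.26, adjusted p = 6.97e-05). In the 6 libraries alone 9 fell and 1 rose, and without injured replicate 1 or 3 or uninjured replicate 1 only 3 fell.

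**Figure D5:**
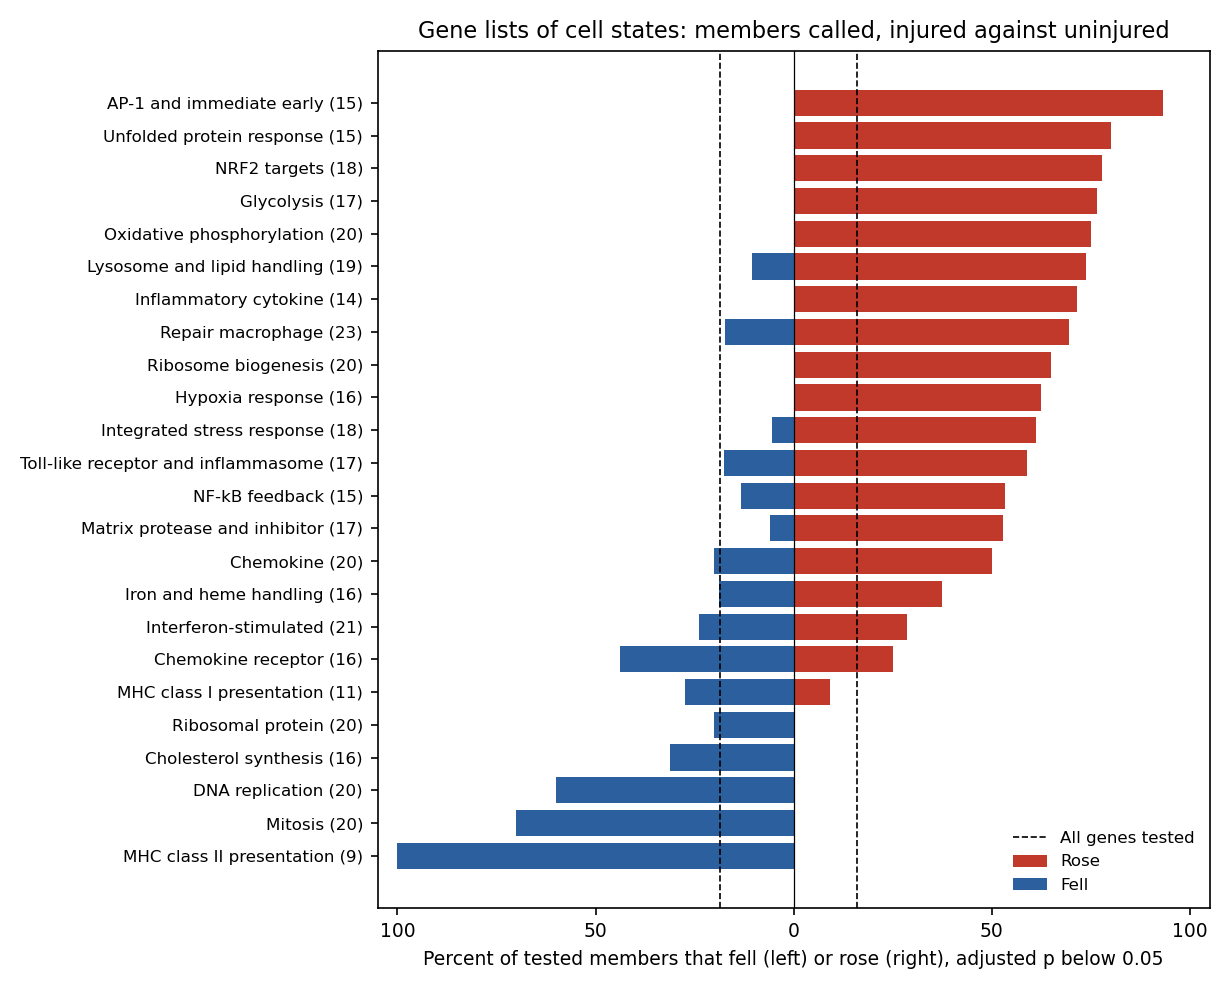
Percent of the tested members of 24 gene lists that rose (red bars, to the right) or fell (blue bars, to the left) in injured against uninjured CD45+ cells, with the number tested in brackets and dashed lines at the shares of all genes, 16% for rises and 18.5% for falls. Immediate early, unfolded protein response and NRF2 lists reach furthest to the right, and MHC class II, mitosis and DNA replication lists reach furthest to the left.

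Ribosome biogenesis genes rose in 13 of 20 cases, Bop1 at 181, 228 and 184 CPM in injured and 76.2, 88.2 and 94.5 CPM in uninjured cells (log2 fold change 1.20 ± 0.17, adjusted p = 5.6e-06), while ribosomal protein genes rose in none and fell in 4 of 20 (median -0.07), a share near the 18.5% of all genes, and in 2 with no filter on low counts. Genes of DNA replication fell in 12 of 20 cases and rose in none. Pold1, a DNA polymerase subunit gene, was at 20.2, 16.4 and 21.3 CPM in injured and 48.9, 55.2 and 78.4 CPM in uninjured cells (log2 fold change -1.65 ± 0.22, adjusted p = 4.46e-06), and 18 of the 20 genes were highest in injured replicate 3 among injured libraries. Mitosis genes fell in 14 of 20 cases. Nusap1, a spindle protein gene, was at 0, 0 and 1.63 CPM in injured and 10.7, 11.9 and 13.7 CPM in uninjured cells (log2 fold change -4.37 ± 1.02, adjusted p = 0.00201). Cenpe, a kinetochore motor gene, was at 0, 0.735 and 0.934 CPM in injured and 26.1, 8.39 and 8.300 CPM in uninjured cells (log2 fold change -4.61 ± 1.16, adjusted p = 0.00419). The mitosis count was 5 without injured replicate 1, 6 without injured replicate 2, 9 without uninjured replicate 1 and 8 with no filter on low counts.

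Of 30 transcription factor genes of macrophages 11 rose and 5 fell (16.7%, near the 18.5% of all genes that fell), and 7 rose without injured replicate 2. Nr1h3, the gene of the oxysterol receptor LXR alpha, was at 36.9, 56.4 and 55.8 CPM in injured and 9.73, 7.23 and 12.9 CPM in uninjured cells (log2 fold change 2.32 ± 0.29, adjusted p = 1.81e-06). Mef2c, which B cells also express, was at 62.4, 48.3 and 90.6 CPM in injured and 281, 301 and 277 CPM in uninjured cells (log2 fold change -2.09 ± 0.19, adjusted p = 1.78e-08). Bach2, a repressor gene of lymphocytes, was at 12.6, 7.596 and 10.98 CPM in injured and 27.1, 32.4 and 58.1 CPM in uninjured cells (log2 fold change -1.91 ± 0.32, adjusted p = 5.77e-05).

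The injury response of CD45+ cells was set against the mean response of CD31+, MSC and MuSC cells in the same fit, and it was higher for 1560 genes (9.59%) and lower for 2613 (16.1%). Arg1 differed by 8.12 ± 1.11 SE, adjusted p = 1.68e-05, and averaged 0.381, 1.37 and 0.291 CPM in injured CD31+, MSC and MuSC cells. Nt5e, which encodes the ectoenzyme CD73, was at 28.05, 24.99 and 26.9 CPM in injured and 1.899, 0.578 and 0.859 CPM in uninjured cells (difference 7.25 ± 0.98 SE, adjusted p = 5.81e-06). Il1rl1, the interleukin 33 receptor gene, was at 1.77, 10.3 and 5.14 CPM in injured and 78.8, 53.8 and 32.6 CPM in uninjured cells, while in MSC it averaged 434 CPM in injured and 1.10 CPM in uninjured cells (difference -10.08 ± 2.22 SE, adjusted p = 0.00328). Aldh1a2, a retinoic acid synthesis gene, was at 4.55, 3.43 and 7.47 CPM in injured and 188, 62.5 and 78.4 CPM in uninjured cells, while in MSC it averaged 824 CPM in injured and 335 CPM in uninjured cells (difference -8.36 ± 2.29 SE, adjusted p = 0.0136). This difference also counts the responses of CD31+ and MuSC cells, so that the MSC values alone do not give its size.

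Lists of growth genes differed in every member, where 16.1% of all genes responded lower. All 20 ribosome biogenesis genes, all 20 ribosomal protein genes, all 20 DNA replication genes and all 20 mitosis genes responded lower in CD45+ cells than the mean of the other 3 populations, although 13 of the ribosome biogenesis genes rose in CD45+ cells. Ribosomal protein genes moved little in CD45+ cells (median -0.07), while their median difference was -0.86. A shift of mix and a change within cells cannot be told apart in the CD45+ responses. Higher responses were made by 11 of 15 immediate early genes, 10 of 15 unfolded protein response genes, 9 of 16 hypoxia genes and 10 of 19 lysosome and lipid genes, against 9.59% of all genes.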

How the data were processed

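RNA was measured in 24 libraries of 8 groups (4 sorted populations, injured or uninjured, 3 libraries each), of which the 6 CD45+ libraries are compared here. Per the labels' protocols, polyadenylated RNA of 1000 sorted cells was copied with an anchored oligo(dT) primer, amplified, fragmented by transposon and read as pairs of 25 bases, so that neither strand nor molecules were marked. The authors deposited counts per gene symbol for all libraries. STAR 2.5.4 and featureCounts with the mm10 build are named in the submitters' processing notes. The annotation, and how multi-mapping reads were counted, is not given in the sources used here.

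From these counts, genes were filtered with filterByExpr over the 8 groups, scaled by TMM and tested with edgeR 4.0.16 (quasi-likelihood, robust, R 4.3.3), with 1 mean per group over all 24 libraries and Benjamini-Hochberg adjustment. Each SE is approximate (log2 fold change over the root of the F statistic). The difference from the other populations is a contrast in the same model. Ratios of low counts have exact 95% intervals that cover counting error only. The test was checked on simulated data with known changes and the same spread for every gene and group. That check cannot tell how the test does where the spread differs between genes or groups. Gene coordinates are GRCm38 (GENCODE vM21, 49365 symbols matched), and promoter windows are RefSeq, GRCm38.p6.

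The members and lists were chosen with earlier results of these data known. Genes are named by a rule: Ptprc, Lyz2 and Cd79a, the 15 largest rises and the 15 largest falls among genes that passed without overlap and with at least 20 CPM in the higher group, up to 6 members with the smallest adjusted p in each list and those that passed against its majority, 4 differences from the other populations in each direction, and members of cell type lists. A gene named outside this rule is said to have been picked with its values known. Alternatives were RLE scaling, no filter, DESeq2 1.42.0, the 6 libraries alone, a replicate block and leaving out each CD45+ library. Depth was 3383909 to 5081944 counts per CD45+ library. Replicate numbers were checked for pairing: deviations of same-numbered injured and uninjured libraries correlated at -0.00698, -0.0344 and -0.000847 across genes, so that the numbers were not taken to pair libraries.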

Additional observations from a re-analysis of the deposited data

Results flagged for a closer look

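The injury response of CD45+ cells differed from the mean response of CD31+, MSC and MuSC cells, by the contrast in the edgeR fit, for 8 named genes. The differences in log2 fold change were 8.12 for Arg1, 7.48 for Dmkn, 7.25 for Nt5e and 5.66 for Cxcl1, and -11.46 for Pla2g2d, -10.08 for Il1rl1, -8.56 for Slc14a1 and -8.36 for Aldh1a2, each past an adjusted p of 0.05 over all genes. Dmkn differed by 7.48 ± 1.91 SE, adjusted p = 0.00614, and averaged 8.41 CPM in injured and 12.96 CPM in uninjured MSC. Cxcl1 differed by 5.66 ± 1.20 SE, adjusted p = 0.00163, although it averaged 520 CPM in injured and 57.1 CPM in uninjured MSC. Slc14a1, the urea transporter gene, was at 2.27, 1.47 and 0.934 CPM in injured and 36.8, 43.96 and 22.04 CPM in uninjured cells (difference -8.56 ± 2.23 SE, adjusted p = 0.00818), and Pla2g2d differed by -11.46 ± 1.91 SE, adjusted p = 0.000143.

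Gene lists were marked where most of their members passed the same contrast in 1 direction. Higher responses in CD45+ cells were seen for 11 of 15 immediate early genes, 9 of 16 hypoxia genes, 10 of 15 unfolded protein response genes and 10 of 19 lysosome and lipid genes, against 9.59% of all genes. Lower responses were seen for 20 of 20 ribosome biogenesis genes, 20 of 20 ribosomal protein genes, 20 of 20 DNA replication genes and 20 of 20 mitosis genes, against 16.1% of all genes. Whether the mix of CD45+ cells or their state made these differences was not tested.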

How the results depend on the processing

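Over the alternatives 1954 to 2638 genes rose, against 2594, and 2017 to 3130 fell, against 3012. With the replicate block 2545 rose and 2881 fell, and in the 6 libraries alone with that block 1954 rose and 2017 fell. With RLE scaling 2571 rose and 3052 fell, and it moved the median of all genes to -0.13, against -0.12. Leaving out 1 CD45+ library at a time gave 2147 to 2537 rises and 2239 to 2629 falls. Of 724 listed or named genes, none that rose or fell reversed in any setting. Genes that did not pass could change sign. Among them Dcn, Col3a1, Mfap5 and Smoc2 had a positive log2 fold change here and a negative one under an alternative. RLE ended 1 call, the replicate block 7, the 6 libraries alone 24, no filter 33, the 6 libraries with the block 47, DESeq2 51 and leaving out a library 35 to 62.

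Counts of members called in the leading direction of a main list moved by over 1.5 times in these cases. Mitosis genes that fell, 14, were 8 with no filter, and 5 to 12 with 1 library left out. Mature neutrophil genes that rose, 14, were 8 with DESeq2 and 5 in the 6 libraries alone with the replicate block, and 9 to 14 with 1 library left out. Cytokine genes that rose, 10, were 6 with DESeq2. Myeloid genes that rose, 3, were 7 in the 6 libraries alone, with and without the block. Other lists moved too. In the 6 libraries alone leukocyte rises, 1, were 7, MHC class I falls, 3, were 5, muscle fiber falls, 9, were 5, cholesterol synthesis falls, 5, were 9, prostanoid and leukotriene rises, 2, were 5, interferon-stimulated falls, 5, were 3, chemokine falls, 4, were 2, and integrin and selectin ligand falls, 1, were 3. With DESeq2 complement rises, 5, were 2 and phagocytic receptor rises, 9, were 4. Ribosomal protein falls, 4, were 2 with no filter. With 1 library left out, cholesterol synthesis falls were as few as 3, interferon-stimulated rises, 6, as few as 2, macrophage transcription factor rises, 11, as few as 7 and muscle fiber falls as few as 4. Some lists with 1 or 2 calls lost or gained 1 or more. The cause was not tested. A count of 0 in 1 library allows up to 0.868 CPM, so that falls of genes with low uninjured levels cannot be sized at this depth.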
